A study of Mus musculus with 93 samples.

Results

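Granulosa cells from the ovaries of 6 month old mice were compared between Esr2 knockout and wild type, all genes included, in 18 of the 93 samples of a Smart-seq2 study of mouse ovarian cells. The samples were chosen by their labels, 6 knockout and 12 wild type libraries at 6 months. The study also holds granulosa cells of both genotypes at 4 weeks (7 and 7 libraries) and 7 weeks (5 and 5 libraries), used here only to set the 6 month effect beside that of younger mice, and oocytes, not used here. Smart-seq2 copies polyadenylated RNA of small samples into full-length cDNA, without molecular tags and without marking the strand. The knockout allele, the strain, the number of mice and the cycle stage are not given in the sources used here. P-values therefore measure the spread between these libraries, which may be partly technical.

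Granulosa cells surround the oocyte, respond to follicle-stimulating hormone through cyclic AMP, convert androgen into oestrogen, and after the luteinizing hormone surge take part in ovulation and form much of the corpus luteum. Esr2 encodes oestrogen receptor beta, the main oestrogen receptor of granulosa cells, a ligand-activated transcription factor. Mice without it are known to be subfertile, with follicles that respond poorly to the ovulatory signal.

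Esr2 (chromosome 12, 76120419 to 76177259, minus strand, GRCm38) had no count in any of the 6 knockout libraries, which hold 17651259 counts together. The 12 wild type libraries held 9 to 81 Esr2 counts each, which is 5.69 to 18.1 CPM with a median of 10.8 CPM. Wild type was at least 66.3-fold higher when the knockouts are set at the limit that a count of 0 allows over the group, 3 counts or 0.170 CPM. CPM are counts per 1000000 of the library, and this limit covers counting error only.

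Wild type libraries summed to between 826031 and 5083133 estimated counts over 13969 to 17028 detected genes, and knockout libraries to between 1486394 and 5130428 over 14537 to 16568. Wild type replicate 12 (826031 counts) and knockout replicate 5 (1486394 counts) were the only libraries under 1500000. Markers of the labelled cell type were present in both groups: the 15 granulosa markers summed to 5875 to 10031 CPM in wild type and 6676 to 10493 CPM in knockout (log2 difference 0.08, adjusted p = 0.649). Foxl2, a defining transcription factor of granulosa cells, was low, at 2.56 to 17.1 CPM over all 18 libraries. Cyp11a1, which makes pregnenolone from cholesterol, was at 1687 to 8219 CPM.

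Markers of other cell types were not spread evenly over the libraries of the 2 genotypes. Each marker list was summed per library and compared on log2 by an exact two-sided permutation test over all 18564 ways to choose 6 of 18 libraries, with p adjusted over 11 lists. Of the 18 theca and stroma markers 16 were in the table, and their sum was 517 to 1639 CPM in wild type and 1322 to 2255 CPM in knockout (adjusted p = 0.00444), with Star contributing the most counts. Of 8 members tested 3 were called higher (Star, Aldh1a1 and Dcn) and 0 lower, and 4 had a positive log2 fold change. Knockout replicates 1 and 2 held 1533 and 1463 CPM in this sum. Star and Aldh1a1 of this list are also described below, with steroid synthesis and vitamin A handling. A sum of stromal, muscle and epithelial markers without Star, Aldh1a1, Krt8 and Krt18 was at 135 to 546 CPM in wild type. In knockout replicates 1 to 6 that sum was at 130, 136, 951, 647, 287 and 495 CPM. No listed marker that is in the table was at 0 in all 18 libraries. Stromal Dcn was at 118, 88.4 and 79.7 CPM in knockout replicates 3, 4 and 6, at 0.52 to 10.8 CPM in the other 3 knockouts, and at most at 21.6 CPM in wild type. The same 3 knockouts held Upk3b, a surface epithelium gene, at 41.9, 10.7 and 10.7 CPM against at most 5.38 CPM in the other knockouts and 4.22 CPM in wild type. Oocyte markers (12 of 19 in the table) summed to 13.5 to 48.4 CPM in wild type and 29.6 to 73.3 CPM in knockout (adjusted p = 0.00474), with Gdf9 and H1f8 called higher. Erythroid markers (5 of 7) summed to 30.1 to 876 CPM in wild type and 2.58 to 163 CPM in knockout (adjusted p = 0.00474). Endothelial markers (8 of 12) were lower in knockout, 56.5 to 93.8 against 99.999 to 179.9 CPM (adjusted p = 0.000593), a difference carried by Ramp2: without it the adjusted p was 0.557. Immune markers summed to 391 to 5521 CPM in wild type and 443 to 1302 CPM in knockout (adjusted p = 0.21, and 0.0436 without Lyz2), smooth muscle and pericyte markers to 23.6 to 71.4 and 28.7 to 245 CPM (adjusted p = 0.21), and surface epithelium markers to 408 to 1305 and 370 to 1228 CPM (adjusted p = 0.763). Luteal markers summed to 3913 to 6849.6 CPM in wild type and 2196 to 4560.1 CPM in knockout (log2 difference -0.40, adjusted p = 0.0284), and with TMM library sizes the difference was -0.27 (adjusted p = 0.288). Cumulus and mural granulosa markers differed by -0.11 and 0.08 on log2 (adjusted p = 0.59 and 0.763), and mural markers without Cyp11a1 by -1.44 (adjusted p = 0.000198). The last sum is not a fall of the whole list. Of 8 mural members tested 4 had a positive log2 fold change, 1 was called higher and 2 lower. Those 2, Akr1c18 and Ptgfr, were also the 2 luteal markers called lower. The part of these cells in the gene differences was not tested beyond leaving libraries out and 2 marker sums as covariates: with the stromal, muscle and epithelial sum 2455 genes were called, and with the immune sum 1242. In bulk samples fewer cells of a type and less RNA per cell cannot be told apart.

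Libraries also differed in how their values leaned with transcript length. The length tilt of a library is Spearman's rho, across 10685 genes, between its deviation from the mean log2 CPM and the longest transcript length; genes are not independent replicates, so it is a description. It ran from -0.39 to 0.43 in wild type (median 0.04) and from -0.40 to 0.10 in knockout (median -0.22), and wild type replicates 2, 5, 8 and 11 were above 0.2. Genes called higher in knockout had a median transcript of 2351 bases, genes called lower 4632 bases, and genes not called 3251 bases. The share of the gene differences that goes with this tilt was not tested beyond the refits given below.

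**Figure D1:**
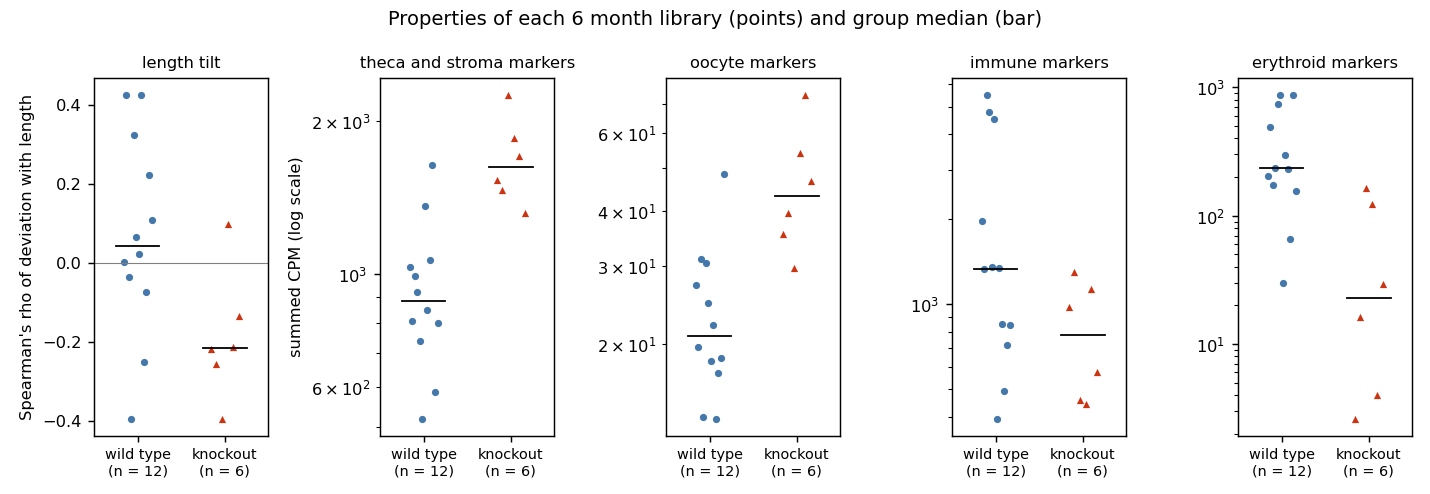
Length tilt (left) and summed CPM of 4 cell type marker lists (log axes) in each 6 month library, with bars at the group medians of 12 wild type (circles) and 6 knockout libraries (triangles). Theca and stroma markers reach 2255 CPM in a knockout library, and 4 wild type libraries have a length tilt above 0.2.

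Of 12505 genes tested, 1580 were called at an adjusted p under 0.05 by edgeR's quasi-likelihood test (12.6%), 824 higher (6.59%) and 756 lower (6.05%) in the knockout. Of these, 322 were at least 2-fold higher and 241 at least 2-fold lower. In 198 genes (1.58%) the 2 groups did not overlap in any library, 132 with the knockout above and 66 below. The number called depended on which libraries and covariates entered: it was 418 with the length tilt as a covariate, 535 without the 4 wild type libraries of high tilt, 851 without the 2 libraries under 1500000 counts, and 459 without the 3 knockouts rich in Dcn. Leaving out a single library brought it to 926 without knockout replicate 5, 982 without replicate 2 and 998 without replicate 3. The 183 genes called the same way with all 18 libraries, in these 4 refits and after removal of the length trend (128 higher, 55 lower) include the genes described first below. No called gene changed direction under another scaling (RLE or upper-quartile), and 9 did without the 3 knockouts rich in Dcn. Of 137 called genes named in the text and covered by the alternatives, 50 kept their call under all 37, and 68 lost it with the length tilt as a covariate, 57 without the 3 knockouts rich in Dcn and 43 without some single library. Gene lists are read beside the shares of all tested genes called higher (6.59%) and lower (6.05%). With the length tilt as a covariate these shares of all tested genes were 2.12% and 1.22%. They were 3% and 1.51% without the 4 wild type libraries of high tilt, and 8.76% and 2.83% after removal of the length trend. Without the 3 knockouts rich in Dcn 285 genes in all were called higher and 174 lower. List counts under a refit are to be read beside the values of that refit.

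**Figure D2:**
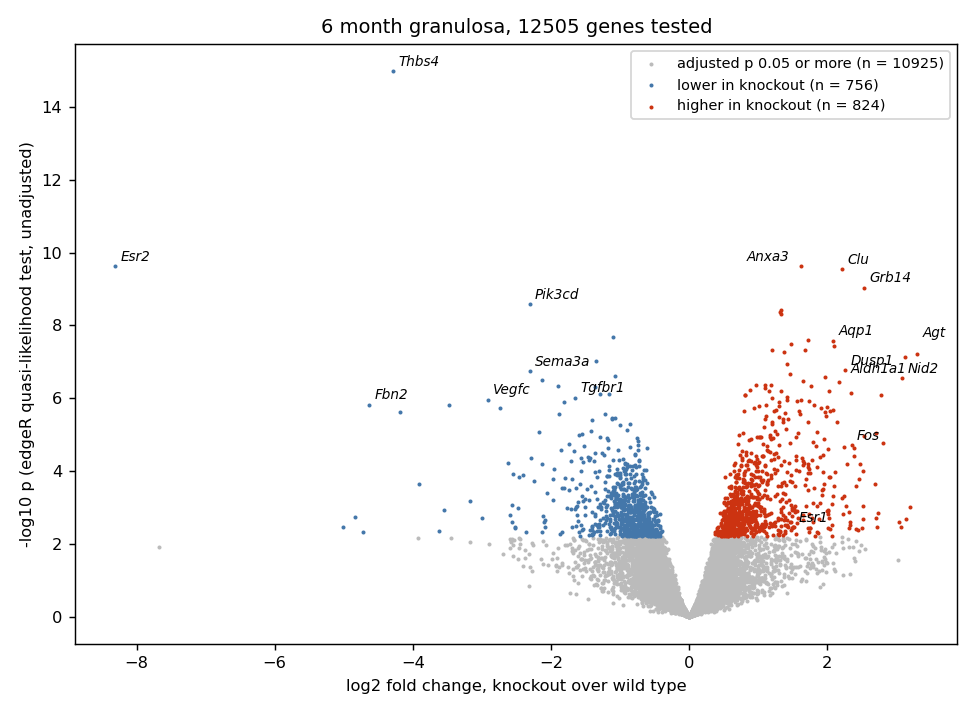
Log2 fold change of knockout over wild type against −log10 of the unadjusted edgeR p for each of 12505 tested genes, with 824 called higher and 756 called lower. Thbs4 has the smallest p and Esr2 the largest fold change.

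The genes with the smallest p among those higher in the knockout have varied roles in secretion, membrane transport and metabolism. CPM are TMM-scaled from here on, and a triple of values gives the lowest, median and highest library. Clu, a secreted chaperone and apolipoprotein, was at 264, 421 and 845 CPM in wild type and 1653, 2191 and 2617 CPM in knockout (log2 fold change 2.23 ± 0.22, SE; adjusted p = 9.06e-07). Grb14, an adaptor that restrains insulin receptor signalling, rose from 13.5, 28.0 and 62.4 CPM to 109, 157 and 342 CPM (2.54 ± 0.26; adjusted p = 2.31e-06). Anxa3, a calcium-dependent phospholipid-binding annexin, was at 31.9, 40.8 and 54.3 CPM and 88.1, 132 and 205 CPM (1.63 ± 0.16; adjusted p = 9.06e-07). In these 3 genes every knockout library lay above every wild type library.

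Aqp1, a water channel, was at 1.58, 5.19 and 9.38 CPM in wild type and at 15.5, 23.4 and 29.4 CPM in knockout (2.09 ± 0.26; adjusted p = 2.74e-05). Glul, the glutamine synthetase, was at 108, 232 and 311 CPM and 492, 586 and 1257 CPM (1.73 ± 0.22; adjusted p = 2.74e-05), with knockout replicate 5 far above the rest. The neighbouring membrane protein genes Tmem176a and Tmem176b rose by 1.32 and 1.34 on log2. Reads of overlapping neighbours on opposite strands cannot be told apart in libraries of this kind. Agt, angiotensinogen, the precursor of the angiotensin peptides, was named after its values were seen: it was at 2.70, 12.2 and 29.8 CPM in wild type and 53.5, 144 and 189.9 CPM in knockout (3.31 ± 0.39; adjusted p = 4.18e-05). The remaining genes of the set were Prss35, a serine protease-like secreted protein known from the ovary (1.48), Masp1, of the lectin complement pathway (1.21), Dpysl4 (2.11), Arxes2 (1.68), whose count is uncertain because Arxes1 is a near-identical copy, and Loxl3, a lysyl oxidase described with the matrix genes (1.33). Dpysl4 was the exception to separation, with knockout replicate 3 at 8.27 CPM inside the wild type range and the other 5 at 33.4 CPM or more. All 12 genes of this set, and Agt, kept their call under all 37 alternative settings.

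**Figure D3:**
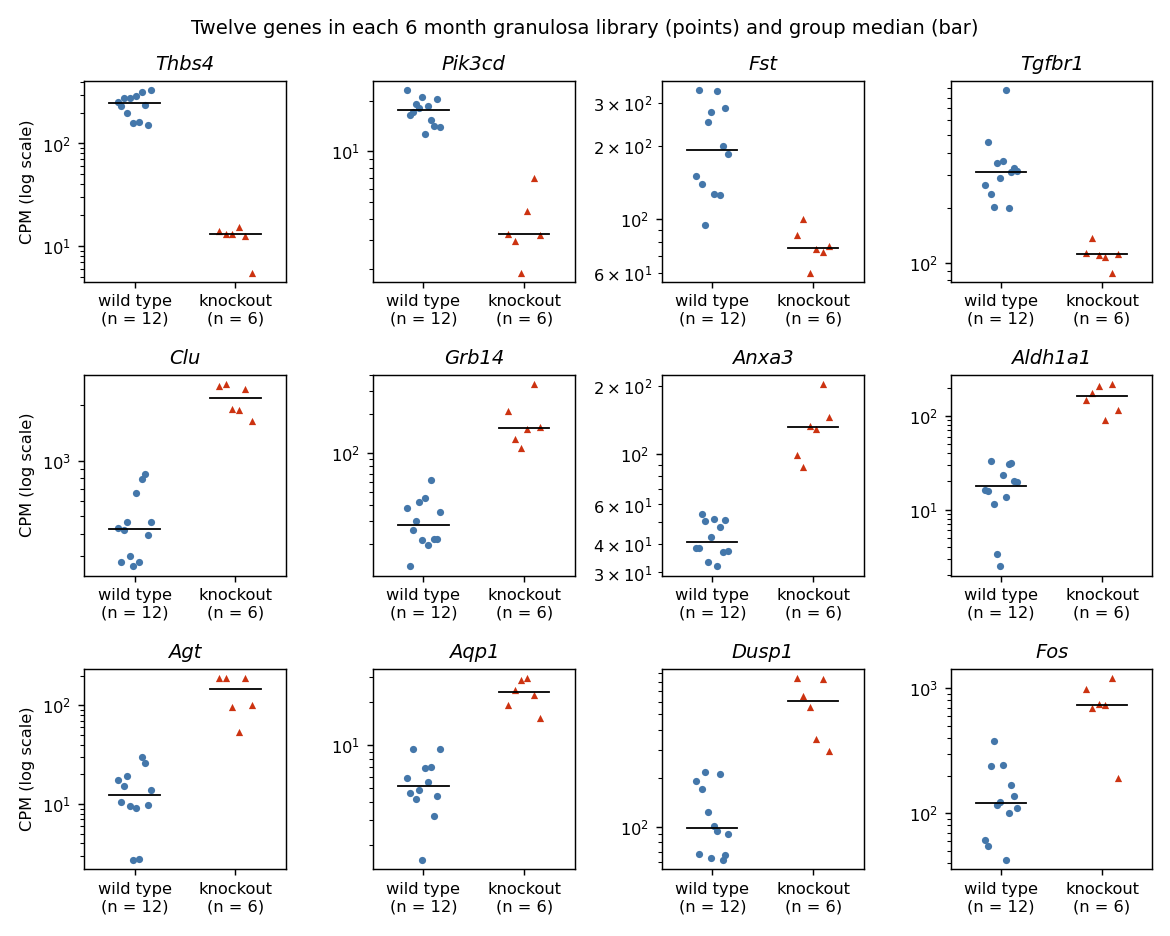
CPM (log axes) of 12 genes in each 6 month library, wild type as circles (n = 12) and knockout as triangles (n = 6), bars at the group medians. Thbs4, Pik3cd and Tgfbr1 lie below and Clu, Grb14, Anxa3, Aldh1a1, Agt, Aqp1 and Dusp1 above wild type in every knockout library, while Fos in knockout replicate 6 and Fst in knockout replicate 2 lie within the wild type range.

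Thbs4, a thrombospondin of the extracellular matrix, had the smallest p of all genes. It was at 151, 248 and 332 CPM in wild type and 5.47, 13.2 and 15.2 CPM in knockout (-4.29 ± 0.24; adjusted p = 1.31e-11), and no knockout library exceeded 15.2 CPM. Pik3cd, the delta catalytic subunit of phosphoinositide 3-kinase, fell from 12.6, 17.6 and 23.1 CPM to 1.91, 3.22 and 6.96 CPM (-2.31 ± 0.26; adjusted p = 5.5e-06). Sema3a, a secreted guidance cue, fell from 11.7, 20.9 and 41.8 CPM to 2.32, 3.53 and 8.48 CPM (-2.31 ± 0.32; adjusted p = 9.84e-05). The groups did not overlap in any of the 3.

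The next lower genes had smaller folds. Usp3, a deubiquitinase, was at 182, 219 and 305 CPM and 85.9, 102 and 123 CPM (-1.11 ± 0.14; adjusted p = 2.58e-05). Ate1, the arginyl-tRNA protein transferase, was at 157, 251 and 284 CPM and 93.5, 111 and 128 CPM (-1.07 ± 0.15; adjusted p = 0.000124). Ptprn, a protein of secretory granules, was at 89.1, 158 and 199.9 CPM and 41.1, 64.3 and 78.6 CPM (-1.34 ± 0.18; adjusted p = 5.79e-05). Both groups stayed apart in these 3 genes as well. Osbpl3, an oxysterol-binding protein relative, fell by 2.12 on log2, Arrdc4, an arrestin-domain protein, by 1.90, Fhdc1 by 1.36, Tbc1d31 by 1.16 and Lipg, endothelial lipase, by 1.29. Of these 5 only Osbpl3 overlapped, with a highest knockout of 34.3 CPM against a lowest wild type of 33.8 CPM. All these lower genes also kept their call under all 37 alternatives.

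Of 41 tested immediate-early genes, which hormones and growth factors induce within minutes, 10 rose and 3 fell (median log2 0.27, against -0.02 over all genes tested). Dusp1, a phosphatase that inactivates mitogen-activated kinases, was at 61.8, 97.8 and 220.5 CPM in wild type and 297, 606 and 845 CPM in knockout (2.27 ± 0.30; adjusted p = 9.84e-05), and every knockout exceeded every wild type library. Fos, a subunit of the AP-1 transcription factor, was at 42.0, 119.7 and 381 CPM and 192, 739 and 1211 CPM (2.36 ± 0.41; adjusted p = 0.00179); knockout replicate 6 lay within the wild type range and the other 5 above it. Nr4a1, an orphan nuclear receptor, was at 50.7, 117 and 398 CPM and 276, 558 and 1091 CPM (1.94 ± 0.36; adjusted p = 0.00281). The groups overlapped in Nr4a1, whose call was lost with the length tilt as a covariate.

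Further members of the list rose as well. Nr4a2 rose by 1.55 on log2 (knockout 10.8, 20.2 and 40.1 CPM), Fosb by 1.76 (knockout 5.92, 21.7 and 47.9 CPM) and Ccn2, a matricellular growth factor target, by 2.09 (knockout 5.92, 21.0 and 29.6 CPM). Egr1, named after its values were seen, was at 336 to 402 CPM in 5 knockouts and 52.8 CPM in replicate 6, below every wild type library (81.5 to 325 CPM). Its call (1.16 ± 0.32, adjusted p = 0.0236) was lost under 9 of the 37 alternatives. Btg2, Myc and Nr4a3 were the other members called higher, and Gadd45a, Klf2 and Jund those called lower. Jund, an AP-1 subunit named after its values were seen, fell from 23.1, 43.4 and 130.4 CPM to 15.0, 19.3 and 22.4 CPM without overlap (-1.58 ± 0.36), and lost its call with the length tilt as a covariate and without the 3 knockouts rich in Dcn. With that tilt covariate 6 members were called higher and 0 lower.

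Promoter windows of 5 of the 10 members called higher are printed (RefSeq starts, GRCm38.p6, 250 bases before to 50 after the start, read 5′ to 3′ along the gene). The 5 were picked without a rule, and the windows of Btg2, Ccn2, Egr1, Myc and Nr4a3 are not printed. Matches in the 5 are therefore not a share of the list. Capitals mark TGACG on either strand, the half-site of the cAMP response element; this motif was added after the values were seen.
Fos (chr12:85473640-85473939, plus strand): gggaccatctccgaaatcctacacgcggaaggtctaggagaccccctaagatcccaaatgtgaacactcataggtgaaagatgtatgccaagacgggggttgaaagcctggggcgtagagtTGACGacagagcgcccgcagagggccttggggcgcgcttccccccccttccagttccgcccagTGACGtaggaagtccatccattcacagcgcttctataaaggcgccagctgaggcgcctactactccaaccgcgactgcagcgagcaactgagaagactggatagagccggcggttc
Fosb (chr7:19309996-19310295, minus strand): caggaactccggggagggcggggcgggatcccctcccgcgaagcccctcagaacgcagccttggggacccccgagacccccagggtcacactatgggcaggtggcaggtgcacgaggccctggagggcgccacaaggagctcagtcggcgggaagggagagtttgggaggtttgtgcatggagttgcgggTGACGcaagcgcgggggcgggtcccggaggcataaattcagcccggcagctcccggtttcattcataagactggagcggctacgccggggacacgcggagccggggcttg
Dusp1 (chr17:26508423-26508722, minus strand): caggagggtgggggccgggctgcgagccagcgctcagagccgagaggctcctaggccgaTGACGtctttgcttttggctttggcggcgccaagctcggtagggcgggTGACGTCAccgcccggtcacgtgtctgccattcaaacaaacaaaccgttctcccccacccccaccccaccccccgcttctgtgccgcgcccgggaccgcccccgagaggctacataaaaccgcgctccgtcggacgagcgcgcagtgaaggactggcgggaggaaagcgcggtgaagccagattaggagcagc
Nr4a1 (chr15:101266596-101266895, plus strand): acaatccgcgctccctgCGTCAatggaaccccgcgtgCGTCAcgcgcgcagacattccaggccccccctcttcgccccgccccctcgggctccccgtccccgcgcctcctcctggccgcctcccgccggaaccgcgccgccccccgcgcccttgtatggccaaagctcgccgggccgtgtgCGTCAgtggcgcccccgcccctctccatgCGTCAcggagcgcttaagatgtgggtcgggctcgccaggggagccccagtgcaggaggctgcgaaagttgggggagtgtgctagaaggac
Nr4a2 (chr2:57123954-57124253, minus strand): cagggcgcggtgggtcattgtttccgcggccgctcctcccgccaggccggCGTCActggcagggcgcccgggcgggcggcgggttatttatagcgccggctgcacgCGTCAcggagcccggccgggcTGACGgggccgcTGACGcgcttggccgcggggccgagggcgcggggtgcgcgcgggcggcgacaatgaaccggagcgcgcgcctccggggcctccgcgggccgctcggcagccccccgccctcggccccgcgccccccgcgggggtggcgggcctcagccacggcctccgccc
The half-site occurred 2 times in the Fos window, 1 time in Fosb, 3 times in Dusp1, 4 times in Nr4a1 and 4 times in Nr4a2. Among all 11888 windows of the 9292 tested genes with an entry, 31.1% held it, against 29.2% of the windows of genes called higher and 31.2% of those of genes called lower. The full element TGACGTCA was found in Dusp1 alone of the 5. It was in 2.99% of windows of higher genes, 2.31% of lower genes and 3.02% of all. The AP-1 site TGANTCA was in 6.11%, 4.36% and 5.15% respectively. The full palindromic oestrogen response element (GGTCA, any 3 bases, TGACC) was in 0 of 802 and 0 of 779 windows of called genes, and in 1 of all 11888. All motifs were searched on both strands. A half-site can lie within a full element, as in Dusp1, and a match is a description of the letters, not of binding.

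Of 33 tested genes of gonadotropin receptors and cyclic AMP signalling 2 rose and 5 fell (median log2 -0.33). Fshr, which encodes the FSH receptor, was at 0.82, 11.8 and 20.8 CPM in wild type and 17.6, 30.2 and 46.1 CPM in knockout (1.5 ± 0.34; adjusted p = 0.00731). Lhcgr, the receptor for luteinizing hormone, was at 5.86, 18.9 and 32.4 CPM and 0.49, 6.97 and 36.7 CPM (-0.61 ± 0.44; adjusted p = 0.356), not called, and its knockout libraries spread over more than the whole wild type range. Downstream of the receptors Gnas, the stimulatory G protein subunit, fell by 0.85, Arrb1, a beta-arrestin, by 0.75, Prkaca, a catalytic subunit of protein kinase A, by 0.63 and Pde8a, a phosphodiesterase, by 0.69, while Adcy9, an adenylyl cyclase, rose by 0.72. Prkar1b, a regulatory subunit, was the fifth member called lower. Fshr, Gnas, Arrb1, Prkaca and Pde8a lost their calls with the length tilt as a covariate, and Adcy9 without the 3 knockouts rich in Dcn. In the related ERK feedback and EGF network 2 of 18 rose, Egfr (0.64) and Dusp6 (0.78), and Spred2 fell by 1.10, all 3 of them not called with the length tilt as a covariate. The share called in this network was 16.7%, against 12.6% of all tested genes.

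Granulosa identity genes were called in both directions, 4 of 29 higher and 3 lower (median log2 -0.07), or 1 and 3 with the length tilt as a covariate. Runx2, a transcription factor of ovulating and luteinizing granulosa cells, fell from 228, 361 and 519 CPM to 119, 162 and 197 CPM (-1.11 ± 0.19; adjusted p = 0.000517). Fst, follistatin, which binds activin, fell from 94.5, 192 and 338 CPM to 60.0, 76.0 and 100.1 CPM (-1.41 ± 0.25; adjusted p = 0.001). Nr5a1, the steroidogenic regulator SF-1, was at 207, 233 and 284 CPM and 131, 149 and 176 CPM (-0.61 ± 0.12; adjusted p = 0.00198). Runx2 and Nr5a1 did not overlap between groups, and in Fst knockout replicate 2 lay within the wild type range.

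Amhr2, the receptor for anti-Müllerian hormone, rose by 0.87 and Dhh, a hedgehog ligand, by 1.01. Inhba, the activin and inhibin beta A subunit, was named after its values were seen: it was at 1300 and 1172 CPM in knockout replicates 1 and 2, at 403 to 635 CPM in the other 4, and at 267, 391 and 592 CPM in wild type (0.87 ± 0.23; adjusted p = 0.0173). The call was lost without either of those 2 replicates. Inha, the inhibin alpha subunit, followed a like order with 4096 and 4539 CPM in the same replicates and was not called (0.65 ± 0.32; adjusted p = 0.164). Cyp19a1 was not called (-0.58 ± 0.44; adjusted p = 0.367).

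In steroid synthesis 8 of 30 tested members rose and 3 fell (median log2 0.35). Star, which carries cholesterol into mitochondria, was at 340.0, 725 and 1594 CPM in wild type and 1016, 1466 and 1911 CPM in knockout (0.92 ± 0.24; adjusted p = 0.0187), a call lost without knockout replicate 3 and with the length tilt as a covariate. Hsd11b1, which regenerates active glucocorticoid, rose from 1.17, 3.27 and 7.43 CPM to 6.44, 13.5 and 28.6 CPM (1.84 ± 0.35; adjusted p = 0.00186) and kept its call under all 37 alternatives. Akr1c18, the progesterone-catabolizing 20-alpha-hydroxysteroid dehydrogenase, fell from 851, 1404 and 2662 CPM to 199, 694 and 883 CPM (-1.38 ± 0.28; adjusted p = 0.0034), lowest in replicates 3 and 4 and not called without the 3 knockouts rich in Dcn. Cyp11a1 was not called (0.63 ± 0.30; adjusted p = 0.151). Lipe, a hormone-sensitive lipase that frees stored cholesterol, rose by 1.07, and Scarb1, the receptor for high-density lipoprotein, by 0.63. Scarb1 lost its call in 19 of the 37 alternatives and Lipe in 2. With the length tilt as a covariate 1 member was called higher and 2 lower.

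Cholesterol synthesis genes rose in 5 of 27 cases and fell in 0 (median log2 0.38). Among them were Fdft1, squalene synthase (1.05), Insig1, a sterol sensor (1.04), Dhcr7 (0.90) and Hsd17b7 (0.94), both late enzymes of the pathway. Knockout replicate 4 was the lowest knockout in these 4, and the groups overlapped in each. Without the 4 wild type libraries of high tilt 1 member was called, and without the 3 knockouts rich in Dcn 7 were, all higher. Of 16 lipoprotein genes 3 rose and 4 fell: besides Clu and Scarb1, Lrpap1, a chaperone of the LDL receptor family, rose by 0.78, and besides Lipg, Vldlr, the VLDL receptor, fell by 0.73, Abca1, a cholesterol exporter, by 0.75 and Lrp10 by 0.42. Abca1 lost its call in 20 of 37 alternatives, Lrp10 in 16 and Vldlr in 5, and with the length tilt as a covariate 2 members of the list were higher and 1 lower.

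Among 24 ovulation genes 5 fell and 1 rose (median log2 -0.38). Cebpb, a transcription factor downstream of the luteinizing hormone surge, was at 3.49, 8.36 and 47.7 CPM in wild type and 0.36, 2.54 and 5.89 CPM in knockout (-2.56 ± 0.65; adjusted p = 0.0172). Its relative Cebpa fell by 0.88, Ptx3, a protein of the cumulus matrix, by 1.40 and Cited4, a coactivator partner, by 1.29, while Adamts1, a matrix protease, rose by 0.75. Cited4 lost its call in 24 of the 37 alternatives, Ptx3 and Adamts1 in 8 each, Cebpa in 5 and Cebpb in 4. Of the 5 that fell Runx2 alone stayed called with the length tilt as a covariate. Among 14 luteal genes 3 rose and 3 fell, against 0 and 3 with that covariate and 2 and 0 without the 3 knockouts rich in Dcn; Sfrp4 rose by 0.97, and Ptgfr, the receptor for the luteolytic prostaglandin F2-alpha, fell from 3.60, 8.56 and 19.2 CPM to 0, 1.69 and 3.60 CPM (-2.29 ± 0.46; adjusted p = 0.00312). Cdkn1b, the cell cycle inhibitor p27, fell by 0.96.

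Among 15 steroid hormone receptors and coregulators tested, 2 rose and 3, Esr2 among them, fell. Esr1, oestrogen receptor alpha, was at 6.32, 14.1 and 54.0 CPM in wild type and at 10.5, 20.5, 60.4, 99.6, 34.0 and 94.3 CPM in knockout replicates 1 to 6 (1.51 ± 0.45; adjusted p = 0.0367). The 3 high values were in the replicates rich in Dcn, and without those 3 the log2 fold change was 0.19 (adjusted p = 0.841). Pgrmc1, a membrane haem-binding protein linked to progesterone action, rose by 0.79, Ncor1, a corepressor, fell by 0.62 and Nr2f6, an orphan receptor, by 0.90. Ncor1 lost its call in 21 of 37 alternatives and Nr2f6 in 19.

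**Figure D4:**
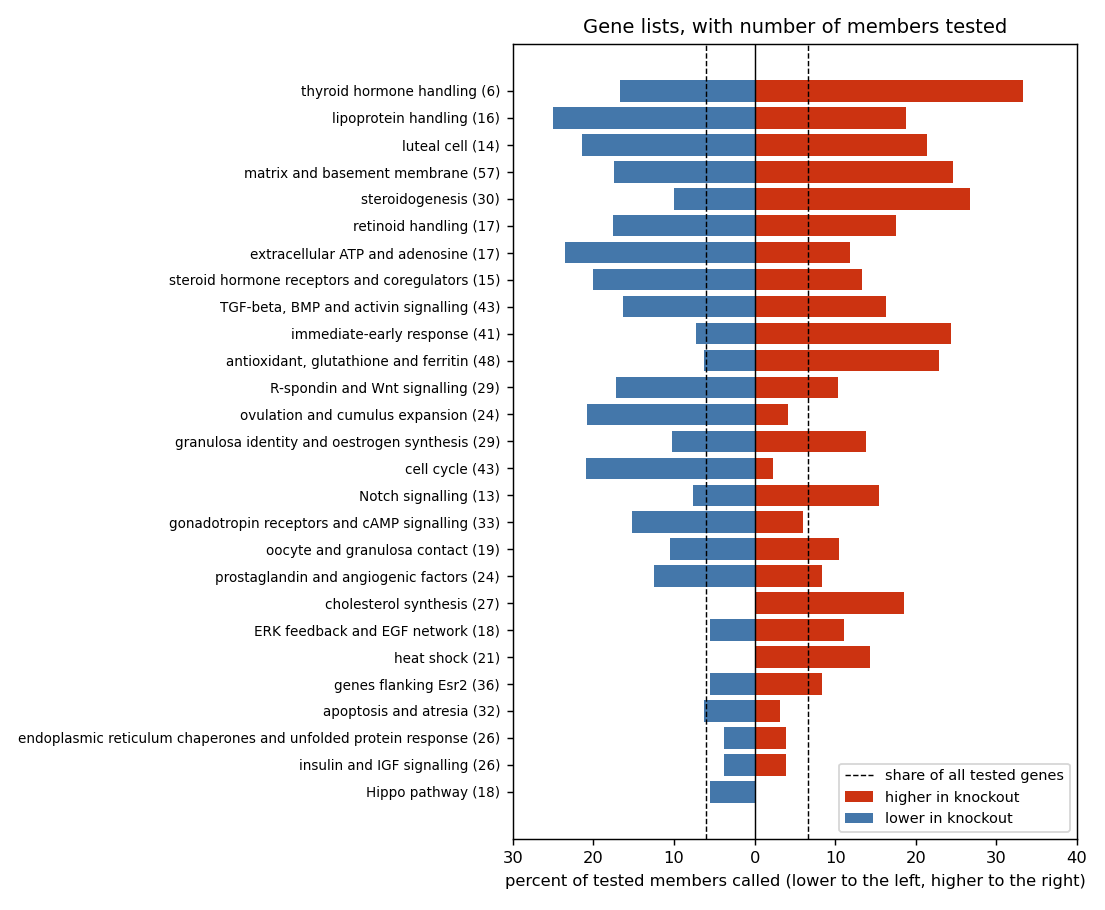
Percent of tested members called lower (left) and higher (right) in knockout for each of 27 gene lists, with the number of members tested, and dashed lines at the shares of all tested genes (6.05% and 6.59%). Immediate-early, steroidogenesis and antioxidant lists lean to the right and cell cycle and ovulation lists to the left.

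In the TGF-beta, BMP and activin list 7 of 43 members rose and 7 fell. The counts were 1 and 3 with the length tilt as a covariate, 1 and 5 without the 4 wild type libraries of high tilt, and 2 and 5 without the 3 knockouts rich in Dcn. Tgfbr1, the type I receptor of TGF-beta, fell from 200.3, 315 and 879 CPM to 88.1, 111 and 136 CPM without overlap (-1.65 ± 0.26; adjusted p = 0.000245). Acvr1, a type I receptor of BMPs, fell by 1.10, and both receptors kept their call under all 37 alternatives. The ligands Bmp3 and Bmp6 fell by 1.21 and 0.89, and Smad3, a signal transducer, by 0.83. Among the 7 members that rose were Amhr2, Inhba and the oocyte gene Gdf9 (1.06).

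For Wnt signalling 3 of 29 members rose and 5 fell, against 1 and 1 with the length tilt as a covariate and 3 and 1 without the 3 knockouts rich in Dcn. The secreted Wnt antagonist Sfrp2 was at 84.8, 126 and 183 CPM in wild type and 216, 255 and 435 CPM in knockout (1.19 ± 0.18; adjusted p = 0.000166), without overlap. Its relative Sfrp4 was at 549, 1289 and 1699 CPM and 1827, 2048 and 3249 CPM, also without overlap. Fzd2, a Wnt receptor, was at 3.50, 7.14 and 11.8 CPM and 0.72, 1.55 and 2.45 CPM (-2.18 ± 0.39; adjusted p = 0.00101), and Fzd1 fell by 1.56. Wnt4, a ligand of granulosa cells, fell by 1.09, and Fzd7 and Lgr5 were also called lower. Dkk3 rose by 1.78, with 12.3 and 12.6 CPM in knockout replicates 1 and 2 and 87.5 to 119 CPM in replicates 4 to 6. Fzd1, Wnt4 and Dkk3 were not called with the length tilt as a covariate, nor without the 3 knockouts rich in Dcn. In insulin and IGF signalling Grb14 alone rose and Igf2r, a clearance receptor for IGF2, alone fell (-0.68) among 26 members. These 2 calls are 7.69% of the list, against 12.6% of all tested genes.

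Matrix and basement membrane genes had 14 of 57 members called higher and 10 lower, 7 of them without overlap (12.3%, against 1.58% of all tested genes) (median log2 0.16). Nid2, nidogen 2 of the basement membrane, was at 0, 0.99 and 3.85 CPM in wild type and 6.83, 10.9 and 14.6 CPM in knockout (3.09 ± 0.45; adjusted p = 0.000133). Loxl1, a collagen and elastin cross-linking enzyme, was at 1.27, 3.61 and 8.18 CPM and 9.28, 15.7 and 45.1 CPM (2.35 ± 0.36; adjusted p = 0.000218), and its relative Loxl3 at 36.1, 53.0 and 74.8 CPM and 106, 131 and 169 CPM. None of these 3 overlapped between genotypes, and Smoc2, a matricellular protein, rose by 1.56.

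Besides Thbs4, Fbn2, fibrillin 2, was lower: it was at 1.62, 4.40 and 15.1 CPM in wild type, at 0 in 4 knockouts and at 0.36 and 0.98 CPM in the other 2 (-4.63 ± 0.74; adjusted p = 0.000324), a fitted value that depends on the prior count. Col6a3, a collagen VI chain, fell from 12.4, 32.4 and 41.3 CPM to 4.97, 7.24 and 16.2 CPM (-1.80 ± 0.29). Both were named after their values were seen. The higher members also include Dcn, whose level rests on knockout replicates 3, 4 and 6 (log2 fold change -0.59 without them). With the length tilt as a covariate 11 members were called higher (19.3%) and 3 lower (5.26%), against 2.12% and 1.22% of all tested genes.

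Of 17 genes of vitamin A handling 3 rose and 3 fell, against 1 and 3 with the length tilt as a covariate and 1 and 1 without the 3 knockouts rich in Dcn. Aldh1a1, which makes retinoic acid, was at 2.48, 18 and 32.7 CPM in wild type and 91.3, 161 and 219 CPM in knockout (3.13 ± 0.37; adjusted p = 4.82e-05), without overlap. Dhrs3, which turns retinal back to retinol, fell from 46.8, 77.3 and 116 CPM to 33.2, 39.0 and 49.4 CPM (-0.92 ± 0.19; adjusted p = 0.00376). Both kept their call under all 37 alternatives. Adh1, an alcohol dehydrogenase, rose by 2.08, with its highest knockouts in replicates 3, 5 and 6. Aldh1a2 (1.83 ± 0.61, adjusted p = 0.0481) reached 22.3 CPM in knockout replicate 3 and was at 0 in replicate 1, and its call was lost in 27 alternatives. Aldh1a3 fell by 1.14 and Rarg, a retinoic acid receptor, by 1.08.

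Extracellular ATP and adenosine genes fell in 4 of 17 cases and rose in 2, against 2 and 0 with the length tilt as a covariate and 1 and 0 without the 3 knockouts rich in Dcn. Nt5e, the ectonucleotidase CD73 that makes adenosine, fell from 23.3, 49.8 and 102 CPM to 7.63, 20.3 and 27.0 CPM (-1.44 ± 0.29; adjusted p = 0.00327). Enpp1 fell by 0.66, the ATP channel Panx1 by 1.05 and the nucleotide sugar receptor P2ry14 by 2.09. Slc29a1, a nucleoside transporter, rose by 1.14 and Alpl, alkaline phosphatase, by 1.43, a call lost in 18 of 37 alternatives. In thyroid hormone handling 2 of 6 rose, among them the receptor Thrb (1.45), and the transporter Slc16a10 fell by 0.99, with 0 of the 6 called without the 3 knockouts rich in Dcn.

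Of 24 prostaglandin and vessel growth genes 2 rose and 3 fell. Ptgis, prostacyclin synthase, was at 15.8, 29.1 and 63.5 CPM in wild type and 67.8, 89.6 and 129 CPM in knockout (1.43 ± 0.22; adjusted p = 0.000242). Vegfc, a lymphatic growth factor, was at 2.34, 8.14 and 14.8 CPM and 0, 0.82 and 1.96 CPM (-2.92 ± 0.46; adjusted p = 0.000267). The groups did not overlap in either, and both calls held under all 37 alternatives. Slco2a1, a prostaglandin transporter, fell by 0.97, and Hpgds, a prostaglandin D synthase, rose by 1.87, its knockouts ranging from 2.34 CPM in replicate 2 to 51.5 CPM in replicate 4. Hpgds lost its call in 22 of the 37 alternatives and Slco2a1 in 4. Of 19 genes of contact between oocyte and granulosa cell, Gucy1a1, a soluble guanylyl cyclase subunit, rose by 1.24, Nectin2 by 0.61, and Nectin1 and Efnb2 fell by 1.81 and 1.84, against 1 higher and 0 lower with the length tilt as a covariate.

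Of 43 cell cycle genes 9 fell and 1 rose (median log2 -0.14). The 9 include Cdkn1b, the inhibitor p27 described with the luteal genes, and the 1 that rose was Cdkn2c. Cenpf, a kinetochore protein, was at 49.0, 56.3 and 82.7 CPM in wild type and 29.0, 35.5 and 47.1 CPM in knockout (-0.66 ± 0.15; adjusted p = 0.00666), and Top2a, topoisomerase of dividing cells, at 88.2, 110.3 and 201 CPM and 56.0, 75.6 and 86.7 CPM (-0.68 ± 0.17; adjusted p = 0.0124). The groups did not overlap in either. Mki67, the proliferation marker, fell by 0.90, Kif11 by 0.83 and Cenpe by 0.67. Mki67 lost its call in 8 of the 37 alternatives, Cenpe in 6, Top2a in 5 and Kif11 in 4. All 4 lost it with the length tilt as a covariate, where 1 member was higher and 3 lower. Once the length trend of each library was removed 3 members were higher and 1 lower, and without the 3 knockouts rich in Dcn 0 and 1.

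Apoptosis genes were called in 3 of 32 cases (9.38%), fewer than the 12.6% of all tested genes. Bok, a pro-apoptotic BCL2 relative, rose from 83.0, 117 and 168 CPM to 175, 214 and 299.7 CPM without overlap (0.94 ± 0.15; adjusted p = 0.000353). Bcl2l11, the pro-apoptotic BIM, fell by 1.15, and Apaf1, of the apoptosome, by 1.00. Bok and Bcl2l11 kept their call under all 37 alternatives.

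Antioxidant and glutathione genes rose in 11 of 48 cases and fell in 3 (median log2 0.27). Mgst3, a microsomal glutathione transferase, was at 44.5, 66.8 and 78.1 CPM in wild type and 86.5, 104 and 145 CPM in knockout (0.79 ± 0.14; adjusted p = 0.00111), and Prdx6, a peroxiredoxin, at 171, 276 and 344 CPM and 355, 450.2 and 553 CPM (0.77 ± 0.15; adjusted p = 0.00226), both without overlap. Gstm1, a glutathione transferase, was at 295 and 380 CPM in knockout replicates 1 and 2 and at 925 to 1712 CPM in the other 4, against 149, 290.5 and 739 CPM in wild type (1.67 ± 0.33). Gstm1, Gstm2 and Gstm5 are near-identical in part, and how shared reads were divided is not given in the sources used here. Nqo1 rose by 1.18, Gpx8 by 0.51 and Gstm5 by 0.55. These 3 lost their calls in 5, 6 and 6 of the 37 alternatives, in each case also with the length tilt as a covariate. With that covariate 3 members of the list were higher (6.25%) and 1 lower (2.08%), against 2.12% and 1.22% of all tested genes. Without the 3 knockouts rich in Dcn 2 members were called, both higher. Of 21 heat shock genes Hspb1 (1.24), Hspa2 and Dnajb1 (0.66) rose and 0 fell, and with the length tilt as a covariate 0 were called.

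Genes flanking Esr2 on chromosome 12 were listed because they lie beside the targeted gene. Of 36 tested, 3 rose and 2, Esr2 among them, fell (13.9% called, against 12.6% of all tested genes). Arg2, arginase 2, rose by 2.24, with 26.1, 33.4 and 14.1 CPM in the replicates rich in Dcn and 2.34 to 4.64 CPM in the others. Zfp36l1, an RNA-binding protein, rose by 0.80, Hspa2 by 0.82, and Plekhg3 fell by 0.83. Of the 5 called genes Esr2 alone did not overlap between groups, and the other 4 lost their calls under 4 to 20 of the 37 alternatives.

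The 6 month effect was set beside that at 4 and 7 weeks in 1 edgeR model over the 6 granulosa groups of 42 libraries, in which the difference between 2 ages was tested. Between 6 months and 4 weeks 94 of 14307 genes differed (0.657%), 76 with a higher and 18 with a lower log2 effect at 6 months. The count was 41 without knockout replicate 5 at 6 months, 61 without knockout replicate 2 at 6 months, 52 without knockout replicate 6 at 4 weeks and 58 without wild type replicate 6 at 4 weeks. The 5 with the smallest p were lower in the knockout at 4 weeks and not called lower at 6 months. Fam20a, a secretory pathway pseudokinase, had a log2 fold change of -2.60 ± 0.35 at 4 weeks and 0.61 ± 0.30 at 6 months (difference 3.21; adjusted p = 5.96e-05). Slc12a8, a transporter, went from -1.70 ± 0.28 to 0.94 ± 0.25 (difference 2.64; adjusted p = 5.96e-05). The estimates of these 2 genes had opposite signs at the 2 ages, and that of Fam20a at 6 months was not called.

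The other 3 had estimates nearer to 0 at 6 months. Pik3c2g, a lipid kinase, had -2.82 ± 0.25 and -0.59 ± 0.23, Entpd1, the ectonucleotidase CD39, -2.57 ± 0.28 and -0.20 ± 0.25, and Col18a1, a basement membrane collagen, -1.87 ± 0.20 and -0.21 ± 0.18. All 5 differences remained called with the length tilt as a covariate (adjusted p 0.000156 to 0.000671). Lhcgr, named after its values were seen, had -4.24 ± 0.52 at 4 weeks, -3.51 ± 0.61 at 7 weeks and -0.64 ± 0.43 at 6 months (6 months minus 4 weeks 3.60, adjusted p = 0.00231, and 0.00547 with the tilt). Cyp11a1, also named then, had -1.59 ± 0.40, -1.19 ± 0.47 and 0.61 ± 0.36 (adjusted p = 0.0368, and 0.0766 with the tilt). Aqp1, higher at 6 months, had -1.08 ± 0.48 at 4 weeks (difference 3.13; adjusted p = 0.00663). The 6 month libraries enter every such difference, so these differences share samples with the 6 month comparison.

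**Figure D5:**
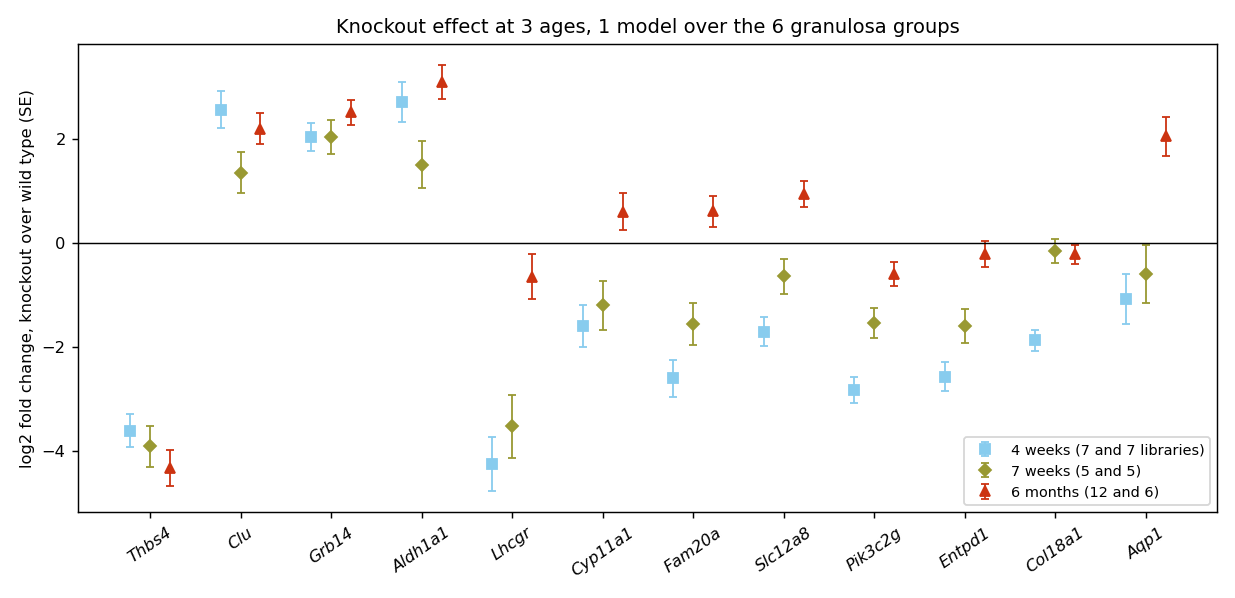
Log2 fold change of knockout over wild type, with its standard error, at 4 weeks, 7 weeks and 6 months for 12 genes, from 1 model over the 6 granulosa groups. Thbs4, Clu, Grb14 and Aldh1a1 lie on the same side at all 3 ages, whereas Lhcgr moves from -4.24 at 4 weeks to -0.64 at 6 months.

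Between 6 months and 7 weeks 1492 of 14307 genes differed (10.4%), 666 higher and 826 lower at 6 months, a split that was 911 and 710 with RLE scaling. Kif1b, a kinesin, had 0.90 ± 0.24 at 7 weeks and -0.92 ± 0.20 at 6 months, Tnpo2, a nuclear importer, 1.30 ± 0.29 and -0.83 ± 0.23, and Vat1, a vesicle membrane protein, 1.25 ± 0.32 and -1.10 ± 0.27. The proto-oncogenes Rel and Pim1 had 1.57 ± 0.32 and -0.83 ± 0.26, and 1.43 ± 0.40 and -1.55 ± 0.34. The length tilt separated the genotypes at 7 weeks, 0.15 to 0.35 in knockout and -0.38 to 0.08 in wild type, while at 6 months in the same model its medians were -0.32 in knockout and -0.12 in wild type, with overlap. With the tilt as a covariate 0 genes differed at an adjusted p under 0.05 in edgeR (918 at an unadjusted p under 0.05), while limma voom without it called 2289. All 1492 differences kept their sign with the covariate. For the 49 named genes among them the difference was 0.233 to 1.04 times that without it (median 0.579): Tgfbr1 went from -1.45 to -0.40, Dkk3 from 3.16 to 3.09. Leaving out 1 library moved the count of 1492 by over 1.5 times in 9 cases: to 290 without wild type replicate 2 at 7 weeks, 642 without replicate 4 and 993 without replicate 3, to 425 without knockout replicate 3 at 7 weeks, 775 without replicate 2, 897 without replicate 1 and 2298 without replicate 4, and at 6 months to 977 without wild type replicate 8 and 887 without knockout replicate 5.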

How the data were processed

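RNA of granulosa cells was sequenced by Smart-seq2, per the labels' protocols. Per the submitters' processing notes the tools include STAR, Partek and DESeq2 and the build mm10, with no versions or roles stated. The deposited 6 month table holds estimated counts for 17681 gene symbols, of which 16.485% of values are not whole, and how shared reads were divided is not given in the sources used here. The authors' normalised table (signal) equals the rounded counts divided by 1 factor per library and was used in 1 alternative.

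Counts were rounded and tested for knockout against wild type (6 and 12 libraries) with edgeR 4.0.16 (R 4.3.3): filterByExpr, TMM scaling, robust quasi-likelihood fit, Benjamini-Hochberg adjusted p under 0.05. SE is the log2 fold change divided by the square root of F. Age differences came from 1 such fit over 42 libraries. Alternatives used DESeq2 1.42.0 and limma 3.58.1. The tests were checked on simulated data. Marker sums were compared on log2(CPM + 1). Totals of 826031 to 5130428 counts set the precision of low genes, with no molecular tags.

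Named genes were Esr2, Esr1, the 12 higher and 12 lower called genes of smallest p with at least 5 CPM in the higher group (no predicted loci), up to 6 members of smallest p per described list, all called steroid receptor and Esr2-flanking genes, and the 5 genes of smallest p of each age contrast; Lhcgr, Cyp11a1, Cyp19a1, Inhba, Inha, Egr1, Jund, Agt, Col6a3, Fbn2, Dcn, Gdf9 and H1f8 were named after their values were seen. Members and lists were chosen with earlier results of these data known. Promoters are from RefSeq (GRCm38.p6), matched by symbol for 9292 of 12505 tested genes. Replicate numbers are shared across genotypes without a stated pairing, so the fit has no block. The 51 oocyte samples were left out. A few genes are not reported here.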

Additional observations from a re-analysis of the deposited data

Results flagged for a closer look

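In 16 of 162 sets of 6 knockout values examined, 1 library stood far from the other 5 (gap over range above 0.625). Chance gives about 1 in 20 for independent, normally distributed values. These sets are CPM without log and share the same 6 libraries, so their chance rate is not known. The highest library stood apart for Glul in replicate 5 (1257 CPM), Arxes2 in replicate 5 (49.5 CPM), Ncor1 in replicate 6 (145 CPM), Loxl1 in replicate 2 (45.1 CPM), Enpp1 in replicate 4 (105 CPM), Aldh1a3 in replicate 3 (78.7 CPM), Aldh1a2 in replicate 3 (22.3 CPM), Cyp19a1 in replicate 3 (9.96 CPM), Fbn2 in replicate 4 (0.98 CPM) and Gdf9 in replicate 5 (29.4 CPM). The lowest stood apart for Dpysl4 in replicate 3 (8.27 CPM), Thbs4 in replicate 6 (5.47 CPM), Lrpap1 in replicate 4 (175 CPM) and Egr1 in replicate 6 (52.8 CPM). The sum of endothelial markers was lowest in replicate 5 (56.5 CPM) and that of smooth muscle and pericyte markers highest in replicate 3 (245 CPM). The calls of Thbs4, Glul, Arxes2, Dpysl4, Loxl1, Lrpap1, Enpp1 and Fbn2 held without any single library. Those of Ncor1, Aldh1a3, Aldh1a2, Egr1 and Gdf9 were each lost without some single library, and Cyp19a1 was not called.

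The knockout effect differed between ages, by edgeR's quasi-likelihood test of the difference, for 15 of the named genes against 4 weeks and 49 against 7 weeks (adjusted p under 0.05). Values are log2 differences of the effect, 6 months minus the younger age. Against 4 weeks the effect was higher at 6 months for Aqp1 (3.13), Adamts1 (1.85), Aldh1a2 (4.19), Slc12a8 (2.64), Fam20a (3.21), Pik3c2g (2.23), Entpd1 (2.37), Col18a1 (1.66), Lhcgr (3.60), Cyp11a1 (2.20) and H1f8 (3.83). It was lower for Bmp3 (-1.58), Slc16a10 (-1.65), Rel (-1.72) and Pim1 (-2.10). With the length tilt as a covariate Bmp3 (adjusted p = 0.102), Cyp11a1 (0.0766) and H1f8 (0.344) were not called, and the other 12 were.

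Against 7 weeks the effect was higher at 6 months for Anxa3 (1.92), Tmem176b (1.77), Tmem176a (1.66), Glul (1.58), Aqp1 (2.64), Dusp1 (2.07), Fshr (2.01), Dhcr7 (1.92), Lrpap1 (1.48), Dkk3 (3.16), Alpl (4.13) and Adh1 (2.32). Further genes with a higher effect were Hpgds (3.03), Prdx6 (1.11), Gstm1 (2.97), Nqo1 (2.39), Arg2 (3.91), Slc12a8 (1.58), Fam20a (2.17), Entpd1 (1.39), Lhcgr (2.87), Cyp11a1 (1.80), Dcn (4.23) and Gdf9 (3.81). Further genes with a higher effect were H1f8 (4.01). The effect was lower at 6 months for Spred2 (-1.58), Fst (-2.30), Nr5a1 (-0.67), Vldlr (-1.01), Abca1 (-1.52), Cebpb (-4.23), Cebpa (-1.61), Ncor1 (-1.26), Nr2f6 (-2.05), Tgfbr1 (-1.45), Smad3 (-0.92) and Fzd1 (-1.60). Further genes with a lower effect were Slc16a10 (-1.49), Nectin1 (-2.08), Efnb2 (-2.62), Top2a (-1.01), Kif11 (-1.35), Apaf1 (-1.58), Kif1b (-1.82), Rel (-2.40), Tnpo2 (-2.13), Pim1 (-2.98), Vat1 (-2.35) and Jund (-3.29). With the length tilt as a covariate 0 of 14307 genes differed against 7 weeks at an adjusted p under 0.05 by edgeR (918 at an unadjusted p under 0.05), and limma voom without that covariate called 2289.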

How the results depend on the processing

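The 1580 calls (824 higher, 756 lower) became 638 (374 and 264) with a replicate block, 851 (467 and 384) without libraries under 1500000 counts, 803 (423 and 380) with all 6 granulosa groups in 1 fit, 418 (265 and 153) with the length tilt as a covariate, 535 (356 and 179) without the 4 wild type libraries of high tilt, 459 (285 and 174) without the 3 knockouts rich in Dcn, and 2455 (1261 lower) with the stromal, muscle and epithelial marker sum as a covariate. Removing the length trend gave 1450 calls split 1096 higher and 354 lower and moved the median of all genes to 0.12 on log2. DESeq2 called 2168, limma voom 1445, and no filter on low counts 1438. The cause of these shifts was not tested. The tilt, trend, stromal and Dcn alternatives and the 4 wild type libraries left out were chosen after seeing the data.

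Leaving out 1 library at a time gave 926 to 2057 calls, 492 to 995 higher and 406 to 1062 lower; the count was 926 without knockout replicate 5, 982 without replicate 2 and 998 without replicate 3. For the age differences the ranges were 41 to 127 (34 to 90 higher, 7 to 37 lower) against 4 weeks and 290 to 2298 (114 to 1135 higher, 176 to 1163 lower) against 7 weeks. Against 4 weeks limma voom called 35 lower, and the tilt covariate left 61, 9 of them lower. Against 7 weeks voom called 2289 (1062 higher), and with the tilt covariate 0 were called, 0 higher and 0 lower. Dcn reversed to -0.59 without the 3 knockouts rich in it.

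Among marker sums the cumulus difference of -0.11 became 0.0218 with TMM library sizes, the mural difference of 0.08 became -1.44 without Cyp11a1, the luteal one of -0.40 became -0.27 (adjusted p = 0.288 by the exact permutation test), the endothelial one of -0.70 became -0.17 without Ramp2, and the immune one of -0.91 became -1.01 without Lyz2 (adjusted p = 0.0436 by the exact permutation test). No pairing by replicate number is stated. The correlation of same-numbered knockout and wild type deviations was above 0.1 for 1 of 6 numbers (number 1, 0.395). Its knockout was also the 1 of 6 that matched its own number best. These correlations cannot show whether same-numbered samples share an animal or a processing day.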

Other observations

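Lists not described above follow, with genes named after their values were seen. The shares of all tested genes called were 6.59% higher and 6.05% lower. In Notch signalling 2 of 13 tested genes rose (15.4%) and 1 fell (7.69%). Hey1, a target of the pathway, rose from 3.02, 5.83 and 10.9 CPM (lowest, median and highest wild type) to 8.29, 14.9 and 21.6 CPM in knockout (log2 fold change 1.33 ± 0.28, SE; adjusted p = 0.00393 by edgeR's quasi-likelihood test). Heyl, its relative, rose by 0.64 and Dll3, a Notch ligand, fell by 1.21. The groups overlapped in all 3. With the length tilt as a covariate 1 of the 13 was higher and 0 lower, and without the 3 knockouts rich in Dcn 0 were called. Of 18 Hippo pathway genes Tead2, a DNA-binding partner of the pathway, fell by 0.90 and 0 rose. Of 26 endoplasmic reticulum chaperone genes Hspa5, the chaperone BiP, rose by 0.67 and Edem1, of endoplasmic reticulum degradation, fell by 0.80.

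The neutrophil genes S100a8 and S100a9 were called lower (-5.02 and -4.72). Their wild type libraries ran from 0 to 66.1 CPM for S100a8 and from 0 to 78.2 CPM for S100a9, and their highest knockouts were at 1.17 and 1.37 CPM. The summed immune markers were lower in knockout by 0.91 on log2 (adjusted p = 0.21 by the exact permutation test), and by 1.01 without Lyz2 (adjusted p = 0.0436 by the same test).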
